A study of Mus musculus with 5 samples.

Results

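The 10 genes described here, of 33696 in the deposited lists, encode chemokines that attract monocytes, T cells and neutrophils or hold microglia in place. They were taken by symbol from a list of such chemokines and are the CC chemokines *Ccl2*, *Ccl7*, *Ccl8*, *Ccl12*, *Ccl3*, *Ccl4* and *Ccl5*, the CXC chemokines *Cxcl1* and *Cxcl2*, and *Cx3cl1*. They were followed in myeloid cells and in Müller glia (MG), the radial glia that span the retina. Adult mouse retinas had received ShH10 AAV that encoded *Yap5SA*, an activated form of the transcriptional coactivator YAP, or *mKate2*, a red fluorescent protein that served as negative control.

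All mice carried *Glast-CreERT2* and *Rosa26-Ai65* on C57BL/6J, were 12 to 20 weeks old and of both sexes, and received tamoxifen. Both vectors used the GFAP promoter and also encoded a Flp recombinase, so that tdTomato needed Cre, which is driven by *Glast* in MG and in other astroglia, together with infection. Sorted tdTomato+ cells were captured with the 10× Genomics 3′ kit 56 days after injection, from 16 pooled retinas of *mKate2* AAV in 2 libraries and 21 pooled retinas of *Yap5SA* AAV in 3 libraries. Because retinas were pooled and nothing ties a library to separate animals, p-values below measure the spread between captures only.

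Chemokines are small secreted proteins, or in the case of *Cx3cl1* a membrane-bound one, that act through G-protein-coupled receptors on leukocytes. *Ccl2*, *Ccl7* and *Ccl12* act mainly through *Ccr2* on monocytes, *Ccl3*, *Ccl4* and *Ccl5* attract monocytes and T cells, and *Cxcl1* and *Cxcl2* act through *Cxcr2* on neutrophils. In the retina, microglia and infiltrating macrophages make many of the CC chemokines, MG can make *Ccl2* and *Cxcl1* when stimulated, and neurons make *Cx3cl1*, the ligand of *Cx3cr1* on microglia.

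Most of the members lie in gene clusters. In GRCm39, *Ccl7* started 8252 bases after the end of *Ccl2*, *Ccl8* 11540 bases after the end of *Ccl12*, and 13191 bases lay between *Ccl3* and *Ccl4*, all on chromosome 11. *Cxcl1* and *Cxcl2* were neighbours on chromosome 5, 10755 bases apart. Some of these neighbours are paralogs, and whether reads could be counted to the wrong member was not tested.

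The 250 bases before the start site are shown for 6 members because these genes differed in how they moved with immediate-early genes. *Ccl2*, *Ccl7*, *Cxcl2* and *Ccl4* rose in the myeloid cells high in those genes, *Cxcl1* and *Ccl2* rose in the MG high in them, and *Ccl8* did not pass the test in myeloid cells and was not tested in MG. Capitals mark matches to a short NF-kB motif (GGG, any 2 bases, TTTCC) or to an AP-1 motif (TGANTCA, which is its own reverse complement), both read on either strand. The windows were at chr11:81926147-81926396 for *Ccl2*, chr11:81936282-81936531 for *Ccl7*, chr5:91038844-91039093 for *Cxcl1*, chr5:91051480-91051729 for *Cxcl2*, chr11:83553133-83553382 for *Ccl4* and chr11:82005757-82006006 for *Ccl8*, all on the plus strand of GRCm39, and none overlapped an annotated exon.
Ccl2: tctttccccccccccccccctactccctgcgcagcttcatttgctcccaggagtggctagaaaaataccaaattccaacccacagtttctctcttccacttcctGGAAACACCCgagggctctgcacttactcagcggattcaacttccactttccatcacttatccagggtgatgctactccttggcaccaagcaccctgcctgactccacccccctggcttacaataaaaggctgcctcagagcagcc
Ccl7: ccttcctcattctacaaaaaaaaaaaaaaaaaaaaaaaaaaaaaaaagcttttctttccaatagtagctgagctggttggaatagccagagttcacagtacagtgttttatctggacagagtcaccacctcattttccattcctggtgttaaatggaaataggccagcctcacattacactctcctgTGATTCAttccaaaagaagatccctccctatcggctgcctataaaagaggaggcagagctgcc
Cxcl1: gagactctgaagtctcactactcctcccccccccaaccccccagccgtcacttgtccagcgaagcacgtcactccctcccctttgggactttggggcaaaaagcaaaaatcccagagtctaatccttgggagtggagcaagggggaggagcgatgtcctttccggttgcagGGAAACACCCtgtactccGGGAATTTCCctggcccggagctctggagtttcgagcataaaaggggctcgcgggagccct
Cxcl2: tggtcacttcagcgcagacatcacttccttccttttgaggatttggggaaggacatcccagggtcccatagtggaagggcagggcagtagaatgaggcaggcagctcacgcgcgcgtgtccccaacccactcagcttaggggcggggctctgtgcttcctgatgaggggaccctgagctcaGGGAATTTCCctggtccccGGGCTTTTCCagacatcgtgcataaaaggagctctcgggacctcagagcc
Ccl4: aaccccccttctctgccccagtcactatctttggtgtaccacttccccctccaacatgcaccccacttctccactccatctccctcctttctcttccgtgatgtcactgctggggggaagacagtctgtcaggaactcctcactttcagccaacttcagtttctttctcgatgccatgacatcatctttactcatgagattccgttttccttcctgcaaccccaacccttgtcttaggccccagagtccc
Ccl8: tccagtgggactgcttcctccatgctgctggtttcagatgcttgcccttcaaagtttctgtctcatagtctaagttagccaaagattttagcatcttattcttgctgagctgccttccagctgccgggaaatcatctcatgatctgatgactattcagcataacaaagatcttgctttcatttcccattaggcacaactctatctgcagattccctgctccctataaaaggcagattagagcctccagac
*Cxcl1* and *Cxcl2* each held 2 NF-kB matches within 79 bases of the start, *Ccl2* held 1 in reverse orientation 146 bases before it, and *Ccl7* held an AP-1 match 63 bases before it. Of all 10 members, 4 held the NF-kB letters (*Ccl5* was the other), against 1.47% of 21770 promoters of the same 250 bases. For AP-1 the count was 1 member, against 6.17% of promoters. An interferon-type motif (GAAA, any 2 bases, GAAA) was in no member, against 3.32% of promoters. No matches overlapped each other. A match is a run of letters and no measurement of binding.

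Myeloid cells were barcodes with at least 1000 UMIs, a mitochondrial share of at most 15% and at least 0.3% of UMIs in *Ctss*, *C1qa*, *C1qb*, *C1qc*, *Tyrobp* and *Fcer1g*. MG had at least 0.5% in *Glul*, *Rlbp1*, *Slc1a3*, *Clu* and *Aqp4*. Barcodes that passed both gates were put in neither class, and no doublet caller was run. *Yap5SA* AAV replicate 2 shared 1361 barcodes with replicate 1 (99.8% of the smaller library), with counts that differed by less than sampling noise, and was left out. The other libraries shared at most 7 barcodes in any pair. This left 4 captures, which are always given in the order *mKate2* AAV replicates 1 and 2, then *Yap5SA* AAV replicates 1 and 3. Myeloid cells numbered 27, 923, 139 and 64, with a median of 14911, 4036, 13028 and 5352.5 UMIs per cell. MG numbered 1496, 2863, 801 and 1341, with a median of 6194.5, 2898, 10772 and 2920 UMIs. Although the cells are labelled as purified MG, the MG gate held between 50.8% and 89.3% of the cells kept in a capture and the myeloid gate between 1.61% and 16.4%. Outside the gate genes, 7 markers of microglia summed to between 2139.8 and 5415 CPM (UMIs per 1000000 UMIs of the class) in myeloid cells and to between 43.8 and 65.1 CPM in MG. The 7 macrophage and monocyte markers summed to between 1034 and 1438 CPM in myeloid cells and to at most 2.40 CPM in MG. *Apoe* was the only called gene among 7 further MG markers that was higher in myeloid cells, and 5 were lower.

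Summed over the members, the level was far higher in myeloid cells than in MG. The 10 members summed to 8976, 8142, 13751 and 9325 CPM in myeloid cells and to 5.08, 257, 123 and 102 CPM in MG. Every myeloid capture was therefore far above every MG capture. In rod-like cells, which passed neither gate and should lack these genes, the members summed to 6.36 CPM in 353 cells of *mKate2* AAV replicate 2 and to 0.504 CPM in 376 cells of *Yap5SA* AAV replicate 3. These cells serve as the background of free RNA in those 2 captures, where MG were above them at 257 and 102 CPM. *mKate2* AAV replicate 1 held 3 rod-like cells and *Yap5SA* AAV replicate 1 held 0, so neither had a background of its own. In this 3′ assay a transcript molecule gives at most 1 UMI whatever its length, so levels were not scaled by length. Whether molecules of different genes were captured and assigned equally well was not tested.

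**Figure D1:**
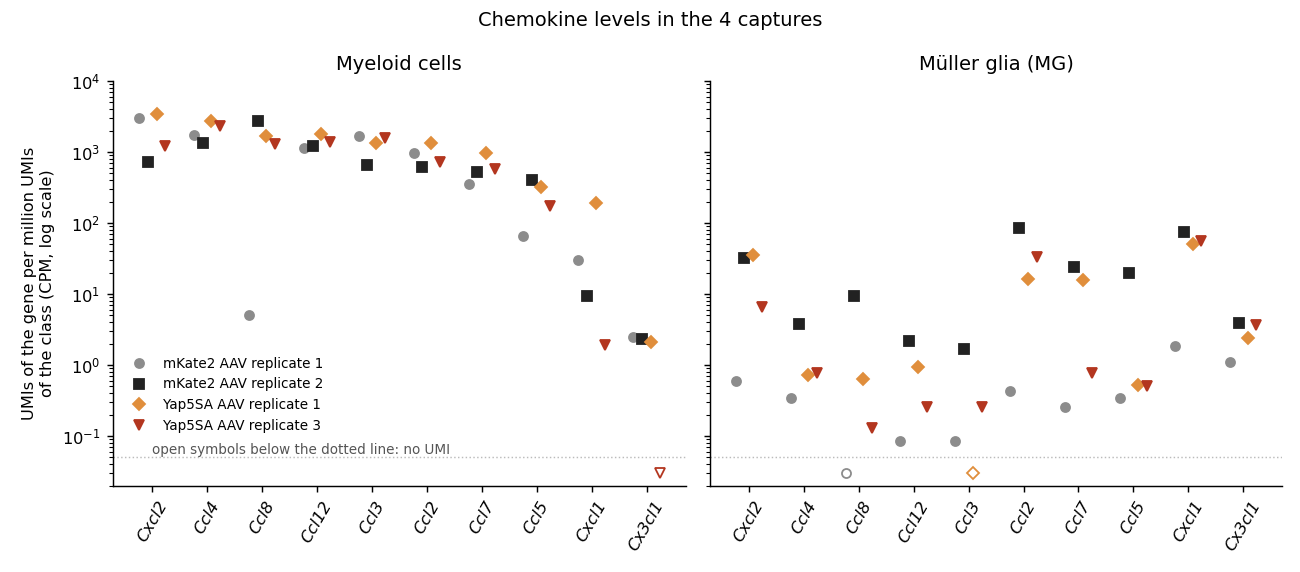
Levels (CPM, log scale) of the 10 chemokines in myeloid cells (left) and MG (right), 1 symbol per capture, in the order of the mean in myeloid cells; open symbols below the dotted line had no UMI. Apart from *Ccl8* in *mKate2* AAV replicate 1 (5.0 CPM), the first 8 genes lie between 65.0 and 3405 CPM in myeloid cells, while no member exceeds 86.1 CPM in MG.

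Among the ligands of *Ccr2*, *Ccl12* was the most even across captures. Its level in myeloid cells was 1145, 1198, 1767 and 1403 CPM, a mean of 1378 ± 282 (SD, n = 4). *Ccl2*, the main monocyte attractant, was at 980.1, 613, 1344 and 732 CPM (917 ± 323). *Ccl7* followed with 353, 519, 963 and 579.9 CPM (604 ± 258) and was below *Ccl2* in 4 of 4 captures. Both were highest in *Yap5SA* AAV replicate 1, as was *Ccl12*. *Ccl8*, a CC chemokine encoded in the same cluster, was at 5.0, 2694, 1703 and 1301 CPM (1425 ± 1113). Its lowest value rests on 2 UMIs in 27 cells, and the other 3 captures were far above it.

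The macrophage inflammatory chemokines *Ccl3* and *Ccl4* were among the more abundant members. *Ccl4* was at 1713, 1324, 2725 and 2344 CPM in myeloid cells (2026 ± 627) and *Ccl3* at 1678, 659.9, 1329 and 1567 CPM (1308 ± 456). *Ccl5*, which T and natural killer cells also make, was lower at 65.0, 406, 324 and 175 CPM (242 ± 152). Markers of T and NK cells were at 2.50, 32.4, 0 and 0 CPM in the same myeloid cells, highest in the capture with the highest *Ccl5*, and their part in it was not tested.

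Of the neutrophil attractants, *Cxcl2* had the highest mean of all members, at 3005, 716, 3405 and 1221 CPM in myeloid cells (2087 ± 1318). *Cxcl1* was at 30.0, 9.22, 189 and 1.90 CPM (57.6 ± 88.5), with 84.9% of its UMIs in *Yap5SA* AAV replicate 1 in 10 cells. *Cx3cl1*, the neuronal ligand, was at 2.50, 2.35, 2.08 and 0 CPM, where no UMI in the last capture allows up to 5.70 CPM. By mean the order was *Cxcl2*, *Ccl4*, *Ccl8*, *Ccl12*, *Ccl3*, *Ccl2*, *Ccl7*, *Ccl5*, *Cxcl1* and *Cx3cl1*. The ranges of all neighbours in it overlapped, and only from *Ccl2* downward was the upper gene of each pair higher in 4 of 4 captures.

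MG showed another order. *Cxcl1* came first at 1.86, 75.1, 49.9 and 56.2 CPM (45.8 ± 31.2, n = 4), followed by *Ccl2* at 0.423, 86.1, 16.3 and 32.7 CPM (33.9 ± 37.2). *Cxcl2* was at 0.592, 31.7, 35.8 and 6.64 CPM and *Ccl7* at 0.254, 23.7, 15.6 and 0.766 CPM. *mKate2* AAV replicate 1 was the lowest capture for each of these 4 genes. *Ccl5* was at 0.339, 19.5, 0.523 and 0.511 CPM, high in *mKate2* AAV replicate 2 alone. *Ccl8* was at 0, 9.22, 0.628 and 0.128 CPM. The remaining *Ccl3*, *Ccl4*, *Ccl12* and *Cx3cl1* did not exceed 3.93 CPM in any MG capture.

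The first comparison asked which members distinguish myeloid cells from MG of the same capture. In edgeR's quasi-likelihood test on counts summed per capture and class, with the capture as a block, 8 of the 10 members were higher in myeloid cells and none was lower (Benjamini-Hochberg adjusted p under 0.05). Of 14393 genes tested, 20.7% were called higher and 28.2% lower (48.9% in either direction). *Ccl8*, *Ccl3*, *Ccl4* and *Ccl5* did not pass the filter on low counts in MG alone. They therefore entered this test mainly through myeloid cells, where they are high. The counts of members here are thus no measure of the members against other genes. *Ccl3* differed by a log2 value of 11.91 ± 0.89 (SE, adjusted p = 3.2e-07), *Ccl12* by 11.30 ± 0.65 (adjusted p = 3.9e-08), *Ccl4* by 11.24 ± 0.68 (adjusted p = 5.7e-08) and *Ccl8* by 10.68 ± 0.78 (adjusted p = 2.7e-07). The differences of *Cxcl2*, *Ccl7* and *Ccl5* were 7.68 ± 0.97, 7.49 ± 0.85 and 7.45 ± 0.70. *Ccl2* differed least among those called, by 6.08 ± 0.98 (adjusted p = 2.2e-04). *Cxcl1* (0.25 ± 1.08, adjusted p = 0.87) and *Cx3cl1* (-0.16 ± 0.75, adjusted p = 0.88) were not called, and the sign of *Cxcl1* turned in DESeq2. The median log2 difference was 7.58 over the members and -0.27 over all genes tested (-0.38 with DESeq2). Every myeloid capture was above every MG capture for 7 members, against 14.7% of genes tested, and *Ccl8* was not among them because its 5.0 CPM in *mKate2* AAV replicate 1 lay below 9.22 CPM in MG of *mKate2* AAV replicate 2. The same 8 members were called in each alternative of this comparison that was run.

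**Figure D2:**
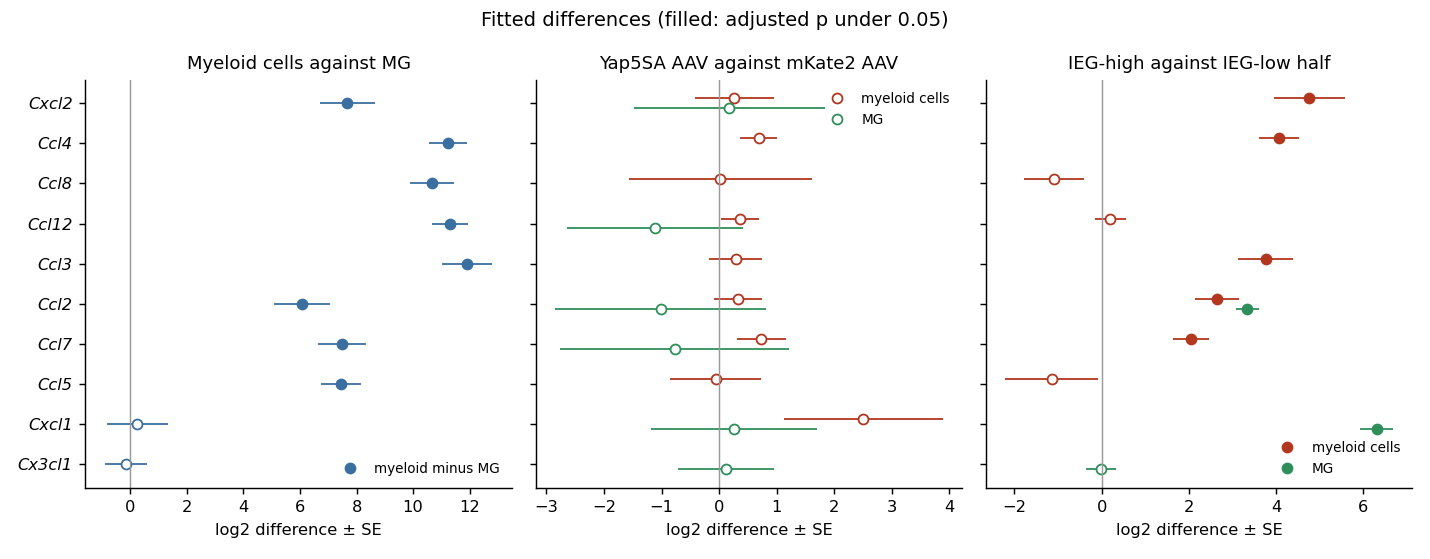
Fitted log2 differences ± SE of the 10 chemokines between myeloid cells and MG (left), between *Yap5SA* and *mKate2* AAV within each class (middle) and between IEG-high and IEG-low cells within each class (right); filled symbols passed the test and genes that did not pass the filter on low counts have no symbol. The left panel holds 8 filled symbols between 6.08 and 11.91, the middle panel holds none, and the right panel holds 5 for myeloid cells and 2 for MG.

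The receptors and other chemokines divided along the same line. Of 10 receptor genes, 5 passed the filter and all 5 were higher in myeloid cells, with a median log2 difference of 8.81. *Cx3cr1*, the receptor of *Cx3cl1*, had the highest mean among them at 503 ± 108 CPM (SD, n = 4), and *Ccr1*, which binds *Ccl3*, was at 167 ± 66.3 CPM. *Ccr2* had a wide range, from 1.90 to 125 CPM. *Cxcr2*, the receptor of *Cxcl1* and *Cxcl2*, had 2 UMIs in all myeloid cells. In MG alone only 2 of the 10 receptors passed the filter, so the others that were tested entered mainly through myeloid cells. Of 17 other chemokines 11 were tested, of which 9 were higher and 2 lower in myeloid cells. The 2 lower ones were *Cxcl12* (-5.02 ± 0.75), which retains CXCR4+ cells, and *Ccl25* (-0.97 ± 0.36), a thymic and gut chemokine. Of 14 NF-kB and cytokine genes 13 were tested, with 10 higher and 1 lower.

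At an equal depth of 2000 UMIs per cell, with shallower cells left out, 95.7%, 89.7%, 89.4% and 81.1% of 23, 760, 123 and 53 myeloid cells held a UMI of at least 1 member. In 56.5%, 42.0%, 53.7% and 24.5% of them at least 3 members were present, and the most in a single cell were 6, 8, 9 and 7 members. Without thinning, 92.6%, 95.1%, 93.5% and 82.8% of myeloid cells had a member. *Ccl12* was the most widely and most evenly detected, in 60.9%, 57.6%, 57.7% and 58.5% of myeloid cells. *Cxcl2*, which had the highest mean level, was found in only 47.8%, 7.89%, 45.5% and 11.3%, so its molecules were held by fewer cells. *Ccl2* was in 52.2%, 32.6%, 43.1% and 18.9%, *Ccl3* in 60.9%, 24.9%, 39.8% and 28.3% and *Ccl4* in 39.1%, 28.7%, 48.8% and 30.2%. These 3 genes had their lowest share in *mKate2* AAV replicate 2 or *Yap5SA* AAV replicate 3. *Ccl8* was in 41.7%, 37.4% and 24.5% of the last 3 captures and in 0 of 23 cells of the first, which allows a share of up to 13.04%. *Cxcl1* was in 8.70%, 0.658%, 14.6% and 0% of myeloid cells, and *Cx3cl1* in no more than 0.395%.

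MG with a UMI of any member made up 0.757%, 7.92%, 4.38% and 3.33% of 1189, 1995, 708 and 930 thinned cells. Without thinning the shares were 2.67%, 12.3%, 11.5% and 5.29%. The rod-like background was 0.880% of 341 cells in *mKate2* AAV replicate 2 and 0 of 343 cells in *Yap5SA* AAV replicate 3, with median depths of 8481 and 4410 UMIs before thinning. MG of the same 2 captures were above these shares, and the other 2 captures had no such background. *Cxcl1* was in 2.46% of MG in *mKate2* AAV replicate 2 (95% exact interval 1.82 to 3.23%), in 1.84% in *Yap5SA* AAV replicate 1 (0.981 to 3.12%) and in 1.29% in *Yap5SA* AAV replicate 3 (0.668 to 2.24%). In *mKate2* AAV replicate 1 it was in 0.168% of MG. In rod-like cells of *mKate2* AAV replicate 2 it was in 0 of 341, which allows up to 0.880%. *Ccl8* was in 0.952% of MG in *mKate2* AAV replicate 2 (0.574 to 1.48%) and in 0.587% of rod-like cells there (0.0711 to 2.10%), intervals that overlap. By level it was at 9.22 CPM in these MG (169 UMIs, 72.8% of them in 10 cells) and at 1.51 CPM (5 UMIs) in the rod-like cells. Intervals cover counting error only.

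**Figure D3:**
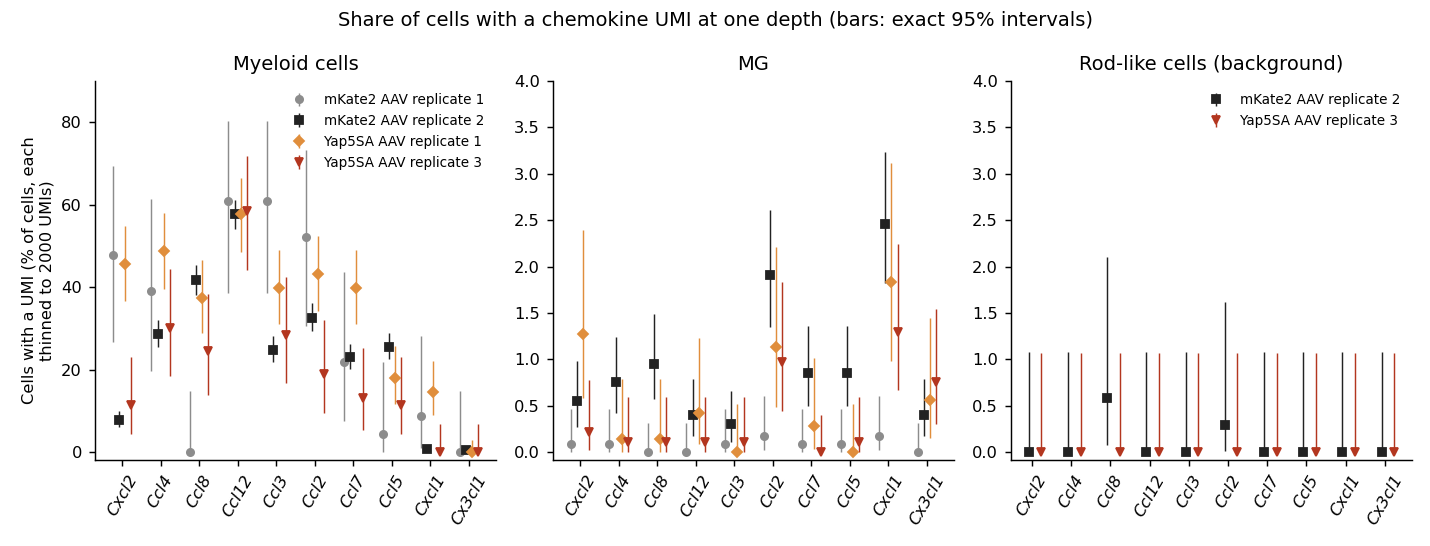
Share of cells with at least 1 UMI of each chemokine after thinning every cell to 2000 UMIs, in myeloid cells, MG and rod-like cells (captures with at least 20 such cells), with exact 95% intervals; the scale of the left panel differs from the others. *Ccl12* lies between 57.6% and 60.9% in all 4 captures of myeloid cells, and in MG *Cxcl1* reaches the highest share, 2.46%.

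Within MG the transcripts were concentrated in few cells. MG with 3 or more UMIs of *Cxcl1* numbered 2, 66, 14 and 18 and held 54.5%, 96.1%, 96.4% and 98.4% of its UMIs. Their median depth was 30136, 30156.5, 21359 and 26639 UMIs, against 6188.5, 2839, 10520 and 2902 in the other MG, so these were the deeper cells in every capture. Summed immediate-early genes were at 22829.8, 45657, 19499.7 and 49037 CPM in them and at 934, 21394, 2105 and 13637 CPM in the other MG. The myeloid gate genes were at 0, 72.5, 14.2 and 4.28 CPM in them and at 4.76, 51.3, 10.4 and 8.83 CPM in the other MG, higher in 2 captures and lower in the other 2. The MG gate genes were at 11365, 15666, 11081 and 12227 CPM, against 18394, 18325, 17346 and 16443 CPM. The part of depth was not tested. For *Ccl2*, 1, 39, 7 and 7 MG with 3 or more UMIs held 60.0%, 96.8%, 94.2% and 98.0% of the UMIs. The myeloid gate genes were at 0, 119, 37.1 and 3.20 CPM in these MG and at 4.75, 47.0, 10.2 and 8.64 CPM in the rest. Pericyte markers were at 30.0, 302, 37.1 and 16.0 CPM against 76.4, 29.3, 35.7 and 46.8 CPM, and their part was not tested. A single MG barcode of *Yap5SA* AAV replicate 1 held 92.6% of the *Ccl7* of that capture. For *Ccl5*, 14 MG barcodes of *mKate2* AAV replicate 2 held 95.2% of the UMIs, and markers of T and NK cells stood at 263 CPM in these barcodes and at 1.97 CPM in the other MG.

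Some members were found in the same myeloid cells more often than others. At 2000 UMIs per cell, *Ccl4* was in 72.0% of the myeloid cells with *Ccl3* and in 13.7% of those without (means over 4 captures, higher in 4 of 4). *Ccl7* was in 52.0% of the cells with *Ccl2* and in 9.63% of those without, again in 4 of 4 captures. *Cxcl2* was in 48.8% of the cells with *Ccl4* and in 14.5% of those without. *Ccl8* was in 25.6% of the cells with *Ccl2* and 25.7% of those without, and in 24.3% and 26.0% by *Ccl3*. By its neighbour *Ccl12* the shares were 24.5% and 27.9%, higher with *Ccl12* in 1 of 4 captures. By *Ccl7* they were 33.6% and 22.9%, higher with *Ccl7* in the 3 captures where *Ccl8* was detected. In MG, *Cxcl1* was in 26.9% of the cells with *Ccl2* and in 1.54% of those without (3 of 3 captures with at least 5 cells of the other gene). *Cxcl2* was in 17.8% of MG with *Cxcl1* and in 0.345% of those without. These are descriptions, and cells of a capture share free RNA.

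*Ccl8* was the member that followed macrophage markers. Myeloid cells with UMIs of macrophage and monocyte markers but none of microglia markers numbered 7, 241, 36 and 12, and their *Ccl8* was at 9.54, 5888, 2215 and 4597 CPM. In the 7, 260, 18 and 23 cells with microglia markers only it was at 0, 353, 249.6 and 55.6 CPM. The first set was higher in 4 of 4 captures, which held for 5.39% of 7916 genes compared and for no other member. In the first capture this rests on 1 UMI. Values of *Ccl12* were 725, 1306, 1107 and 1501.5 CPM in macrophage-marker cells and 2440.4, 1267, 2111 and 1268 CPM in microglia-marker cells, with no common direction. *Cxcl2* was at 1421, 482, 5171 and 0 CPM against 33.0, 54.2, 660.3 and 0 CPM, higher in 3 captures and without a UMI in either set of the fourth. In the cells above the median share of MHC class II genes *Ccl8* was also higher in 4 of 4 captures, against 5.77% of 7921 genes. The first capture held only 2 *Ccl8* UMIs for this division. This division was chosen after values had been seen and was not tested.

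**Figure D4:**
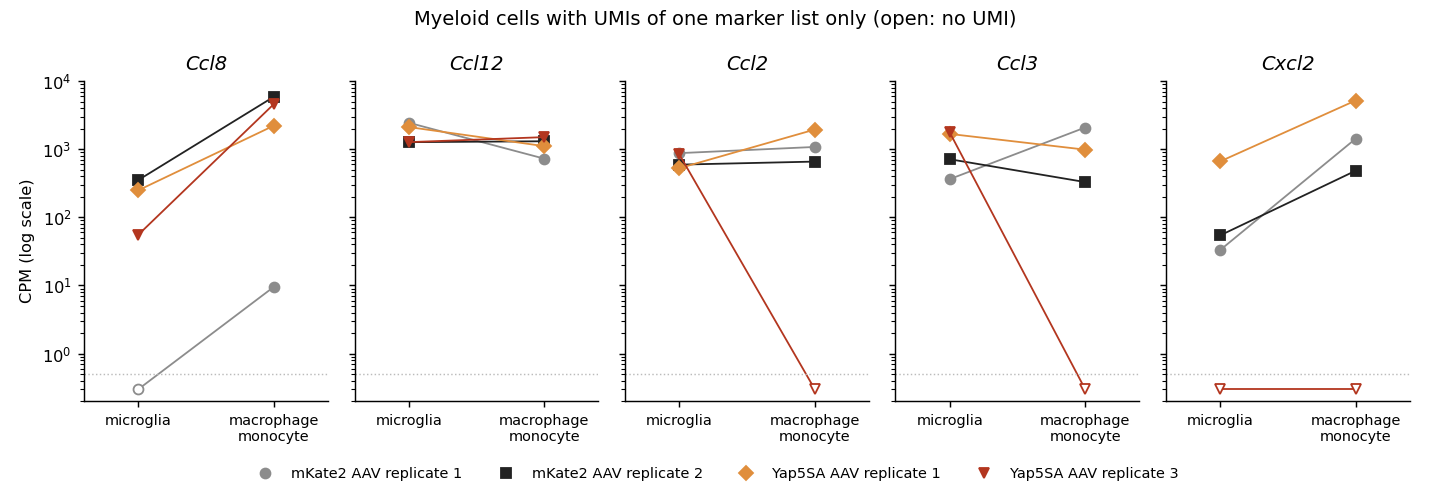
CPM (log scale) of 5 chemokines in myeloid cells with UMIs of microglia markers only and of macrophage and monocyte markers only, lines joining the sets of a capture; open symbols had no UMI. *Ccl8* rises from left to right in all 4 captures, from 353 to 5888 CPM in *mKate2* AAV replicate 2, whereas *Ccl12* has no common direction.

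The second question was whether the members differed between *Yap5SA* AAV and *mKate2* AAV in myeloid cells. No member was called among the 9 tested, and none of all 8725 genes was (0% called, edgeR's quasi-likelihood test, 153 genes at an unadjusted p under 0.05, 3 genes called by DESeq2). The log2 differences were 0.69 ± 0.32 (SE) for *Ccl4*, 0.74 ± 0.42 for *Ccl7*, 0.37 ± 0.33 for *Ccl12*, 0.32 ± 0.42 for *Ccl2* and 2.51 ± 1.38 for *Cxcl1*, each with an adjusted p of 0.999. For *Ccl3*, *Cxcl2*, *Ccl8* and *Ccl5* they lay between -0.06 and 0.29. The median over the members was 0.32 and over all genes tested -0.0015. Both *Yap5SA* AAV captures were above both *mKate2* AAV captures for *Ccl4*, *Ccl7* and *Ccl12*, 3 of 9 members, against 16.4% of genes tested. None was below in both, against 11.9%. With each cell weighted equally, in place of summed counts, the groups overlapped for each of the 9 members tested (13.3% of genes tested lay above), *Ccl4* at 2519, 767, 2272 and 1150.3 CPM, and 10 of the 27 cells of *mKate2* AAV replicate 1 held 95.3% of its UMIs. *Cxcl1* was called higher with no filter on low counts (2.47, adjusted p = 0.0041). Its difference was 3.24 without *mKate2* AAV replicate 1, 3.39 without *Yap5SA* AAV replicate 3 and -3.18 without *Yap5SA* AAV replicate 1. *Ccl8* differed by 8.21 without *mKate2* AAV replicate 2, against the 2 UMIs of *mKate2* AAV replicate 1. A fit without a capture leaves 1 capture in that AAV group, so only its differences are given.

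The file headers divide the captures into a pair processed with Cell Ranger 8.0.0 (the first *mKate2* AAV and the first *Yap5SA* AAV capture) and a pair processed with 9.0.1. Within both pairs 5 of the 9 members tested were higher with *Yap5SA* AAV in summed counts, against 28.8% of genes tested, but none was with each cell weighted equally, against 30.1% of genes. *Ccl4* was 1.59-fold (exact 95% interval 1.47 to 1.73) and 1.77-fold (1.67 to 1.88) higher, *Ccl12* 1.54-fold and 1.17-fold, *Ccl2* 1.37-fold and 1.19-fold, *Ccl7* 2.73-fold and 1.12-fold, and *Cxcl2* 1.13-fold and 1.70-fold. *Ccl8*, *Ccl3*, *Ccl5* and *Cxcl1* went in opposite directions in the pairs, against 47.1% of genes tested, *Ccl3* with ratios of 0.792 and 2.37 and *Ccl5* with 4.98 and 0.431. *Cx3cl1*, which was not tested, was lower in both pairs, on 1, 13, 4 and 0 UMIs. Summed immediate-early genes in myeloid cells were at 9833, 6164, 10318 and 13534 CPM, higher with *Yap5SA* AAV in both pairs, and their part in these differences was not tested.

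In MG, the class the vectors target, the members did not pass the test either. The 6 members that passed the filter had log2 differences of 0.26 ± 1.45 (*Cxcl1*), 0.18 ± 1.66 (*Cxcl2*), 0.11 ± 0.83 (*Cx3cl1*), -0.77 ± 1.99 (*Ccl7*), -1.02 ± 1.83 (*Ccl2*) and -1.11 ± 1.53 (*Ccl12*), with 0 of 15212 genes called (0%, edgeR, 31 at an unadjusted p under 0.05, 0 by DESeq2). *mKate2* AAV held both the lowest and the highest capture of *Cxcl1* and of *Ccl2*. No member lay wholly above or wholly below in *Yap5SA* AAV in summed counts, against 12% and 3.44% of genes tested. In the pair of version 8.0.0 *Yap5SA* AAV was higher, by 26.8-fold for *Cxcl1* (exact 95% interval 17.5 to 43.2), 38.6-fold for *Ccl2* (16.2 to 120) and 60.4-fold for *Cxcl2* (29.0 to 151). In the pair of version 9.0.1 it was lower, with ratios of 0.748 (0.670 to 0.833), 0.379 (0.331 to 0.433) and 0.210 (0.155 to 0.279). Each ratio compares 1 library with 1 library, and its interval covers counting error only. In *Yap5SA* AAV replicate 1 the 10 MG with most UMIs held 93.3% of the *Cxcl1*, 96.2% of the *Ccl2* and 98.0% of the *Cxcl2*, and 1 cell held 225 of 342 *Cxcl2* UMIs, so the ratios rest on few cells. The direction in summed counts was opposite between the pairs for 6 of the 6 members tested, against 62.1% of genes tested, and higher in both pairs for none, against 26.9%. With each cell weighted equally 3 of the 6 (*Ccl2*, *Cxcl2* and *Cx3cl1*) were higher with *Yap5SA* AAV in both pairs, against 32.8% of genes, and *Cxcl2* lay wholly above at 12.2 and 7.39 CPM against 0.688 and 4.86 CPM, against 12.3% of genes. Immediate-early genes in MG were at 1045, 25648, 2747 and 16802 CPM and changed within each pair in the same direction as the summed counts of *Cxcl1*, *Ccl2* and *Cxcl2*. Their part was not tested.

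Whether the AAV difference itself differed between myeloid cells and MG was tested as an interaction, in which 2 of 16193 genes (0.0124%) were called and no member. *Ccl8* had an interaction of 3.54 ± 0.94 (adjusted p = 0.32), *Ccl5* of 3.28 ± 0.82 (adjusted p = 0.16) and *Ccl3* of 2.96 ± 1.00 (adjusted p = 0.87). None of these genes passed the filter in MG alone. Their MG side rests on 169, 357 and 31 UMIs of *mKate2* AAV replicate 2, with at most 6 in any other capture. The outcome changed direction with the *mKate2* AAV replicate that was left out. Each such fit leaves 1 capture in the *mKate2* AAV group, so the spread between captures comes from the *Yap5SA* AAV group alone. The calls of these fits therefore decide nothing about the members. Without replicate 1, 8 members were called, all with a higher difference in myeloid cells (0.789% of 16982 genes), and without replicate 2, 3 members (*Ccl2*, *Cxcl1* and *Cxcl2*) were called, all with a lower one (0.389% of 15957 genes). *Ccl8*, *Ccl3*, *Ccl4* and *Ccl5* were called higher when both gates were set at 2 times the share, where 13 genes were called higher and 3 lower of 15709. In the main setting none of them passed the filter in MG, and most of their MG UMIs were in *mKate2* AAV replicate 2. With the quality limits of the study's methods *Ccl5* was called higher and *Cxcl2* lower, where 4 genes were called higher and 3 lower of 15849.

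The third comparison set the members beside immediate-early genes (IEGs) such as *Fos*, *Jun* and *Egr1*, transcription factors that cells induce within minutes of a stimulus, tissue dissociation included. Cells of a capture were divided at the median share of UMIs in 17 such genes, a list that holds no member. In myeloid cells *Ccl4* was at 2925, 2124, 4218 and 3480.3 CPM in IEG-high and at 298, 144, 245 and 40.3 CPM in IEG-low cells. *Cxcl2* was at 5004, 1196, 5187 and 1822 CPM against 672, 8.95, 444 and 0 CPM. *Ccl3* was at 2688, 1039, 2059.6 and 2333 CPM against 498, 101, 116 and 11.5 CPM. In each capture these 3 genes were higher in IEG-high cells, a direction that 23.3% of genes tested also had in every capture. *Ccl2* was at 1304, 919.8, 2065 and 1065 CPM against 601, 161, 147 and 57.6 CPM, and *Ccl7* at 418, 775, 1400.3 and 829 CPM against 276, 143, 236 and 74.9 CPM.

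The test called these 5 of the 8 members tested, against 3.46% of 5888 genes called higher and 0.153% called lower (3.62% in either direction, edgeR's quasi-likelihood test, capture as block). The log2 differences were 4.77 ± 0.82 (SE, adjusted p = 0.032) for *Cxcl2*, 4.07 ± 0.46 (adjusted p = 0.013) for *Ccl4*, 3.77 ± 0.63 (adjusted p = 0.032) for *Ccl3*, 2.64 ± 0.51 (adjusted p = 0.040) for *Ccl2* and 2.05 ± 0.42 (adjusted p = 0.040) for *Ccl7*. The same 5 were higher in each capture, against 23.3% of genes tested, and none was lower in each, against 16.4%. *Ccl12* (0.20 ± 0.35), *Ccl8* (-1.09 ± 0.70) and *Ccl5* (-1.14 ± 1.06) were not called. *Ccl8* was at 4.64, 1850.3, 2133 and 556 CPM in IEG-high and at 5.42, 3937, 989 and 2810.2 CPM in IEG-low cells, lower in 3 of 4 captures. The first capture held 2 *Ccl8* UMIs in all, so its direction decides nothing. *Cxcl1* did not pass the filter on low counts and was at 55.7, 15.5, 297 and 2.84 CPM in IEG-high cells, against 9.68 CPM in *Yap5SA* AAV replicate 1 and no UMI elsewhere in IEG-low cells. It was called higher with no filter on low counts (5.28, adjusted p = 2.8e-11) and without *Yap5SA* AAV replicate 3 (5.34, adjusted p = 0.0047). With so few UMIs in IEG-low cells, *Cxcl1* entered these fits mainly through IEG-high cells. Its calls are therefore no measure of the gene against other genes.

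IEG-high myeloid cells were also deeper, with medians of 20167, 4254, 16865 and 8972.5 UMIs against 6895, 3851.5, 7874 and 4269, and the part of depth was not tested. No member passed without *mKate2* AAV replicate 2 (lowest adjusted p = 0.057) or without *Yap5SA* AAV replicate 1 (lowest adjusted p = 0.059), with 1 gene called in each case, while the 5 differences kept their sign in the alternatives run. *Ccl7* was also not called without *Yap5SA* AAV replicate 3 or with gates at 0.5 times the share. With cells of at least 2000 UMIs *Ccl3* and *Ccl7* were not called, with cells of both gates in the nearer class *Ccl2* and *Ccl7* were not, and with the quality limits of the study's methods *Ccl4* alone was called. Without the block *Ccl4* alone was called. Of 11 NF-kB and cytokine genes tested in the same comparison 5 were called higher and 6 were not called. Those called included *Tnf* (3.93 ± 0.62, adjusted p = 0.027). Of 5 receptors and 8 other chemokines tested, 0 were called.

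**Figure D5:**
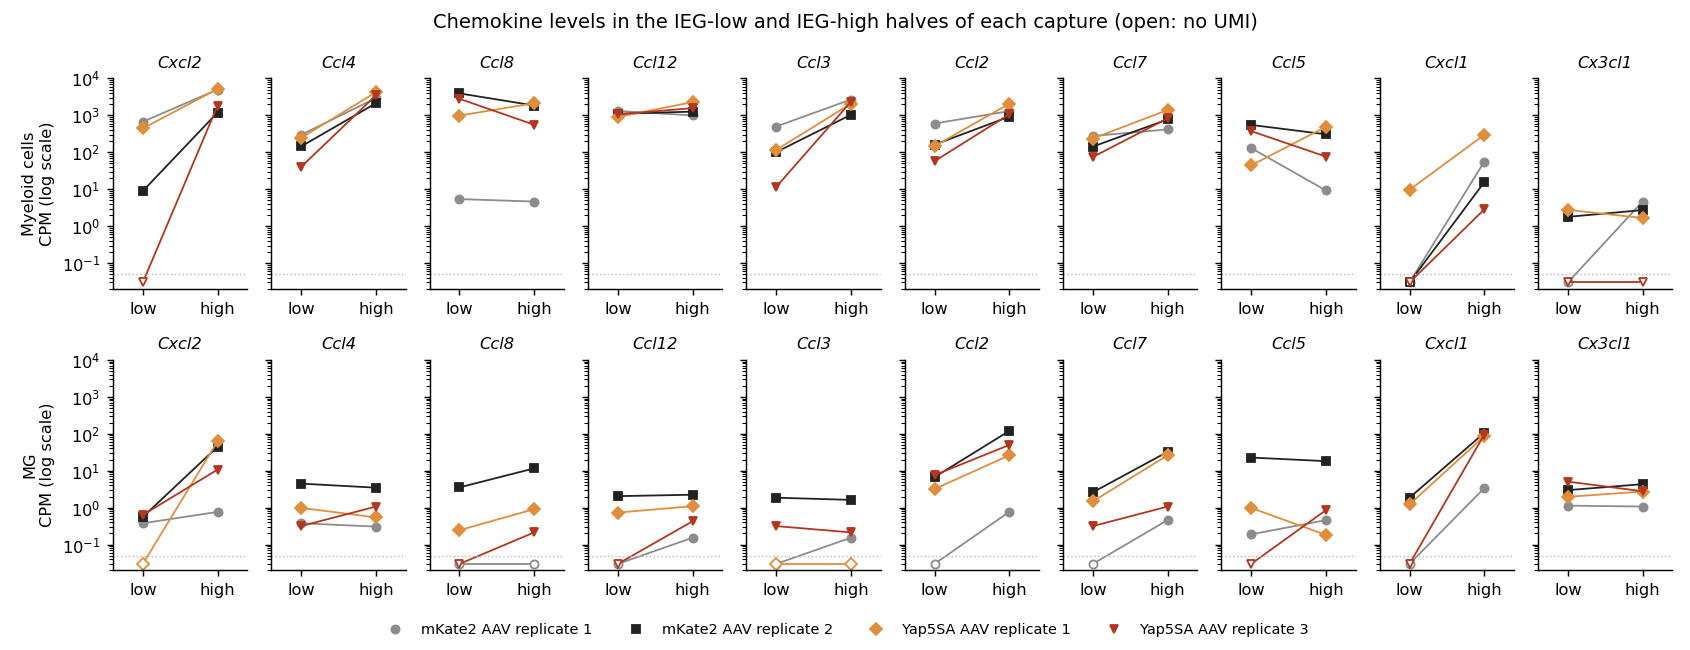
CPM (log scale) of the 10 chemokines in the cells below (low) and above (high) the median IEG share of each capture, in myeloid cells (top) and MG (bottom), lines joining the cells of a capture; open symbols had no UMI. *Cxcl2*, *Ccl4*, *Ccl3*, *Ccl2*, *Ccl7* and *Cxcl1* rise in all 4 captures of myeloid cells, while *Ccl8* falls in 3 of 4. In *mKate2* AAV replicate 1 the *Ccl8* line rests on 2 UMIs. The *Cxcl1* line of myeloid cells in *Yap5SA* AAV replicate 3 rests on 1 UMI.

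In MG the same division gave 2 calls among the 3 members tested, against 0.363% of 13491 genes called higher and 0.0445% called lower (0.408% in either direction). *Cxcl1* was at 3.37, 105, 86.0 and 94.1 CPM in IEG-high and at 0, 1.86, 1.23 and 0 CPM in IEG-low MG, a log2 difference of 6.30 ± 0.38 (SE, adjusted p = 8.2e-04). *Ccl2* was at 0.766, 119, 26.1 and 49.6 CPM against 0, 6.70, 3.19 and 7.60 CPM, a difference of 3.34 ± 0.27 (adjusted p = 0.0030), which was not called with gates at 2 times the share (3.07, adjusted p = 0.17). Each of these was higher in 4 of 4 captures, against 13% of genes tested, and none was lower in each, against 8.43%. *Cx3cl1* had a difference of -0.01 ± 0.34. *Cxcl1* did not exceed 1.86 CPM in IEG-low MG and so passed the filter on low counts mainly through IEG-high MG. The 2 of 3 is therefore no measure of the members against other genes. *Cxcl2*, *Ccl7* and *Ccl12* did not pass the filter but were also higher in 4 of 4 captures, *Cxcl2* at 0.766, 44.6, 62.3 and 10.7 CPM against 0.378, 0.558, 0 and 0.633 CPM. MG of the 4 captures held 3, 434, 149 and 6 *Ccl7* UMIs and 1, 40, 9 and 2 *Ccl12* UMIs. In *mKate2* AAV replicate 1 and *Yap5SA* AAV replicate 3 the directions of *Ccl7* and *Ccl12* therefore rest on few molecules. *Ccl12* had means of 0.978 and 0.696 CPM in IEG-high and IEG-low MG. IEG-high MG were deeper in all captures, at 6816, 3591, 13004.5 and 3275.5 UMIs against 5586, 2500.0, 8963 and 2635. Markers of pigment epithelium summed to 19.0, 542, 216 and 4232 CPM in the MG class. The 2 of these 4 markers that were tested were lower in IEG-high MG without passing the test (*Ttr* -6.52, adjusted p = 0.16, and *Rgr* -4.25, adjusted p = 0.27), and their part in the members' differences was not tested. Among the other chemokines *Cxcl10*, an interferon-inducible ligand of *Cxcr3*, was the 1 called gene of 6 tested (3.13 ± 0.12, adjusted p = 6.3e-05). Without the block, 0 genes and 0 members were called in MG.

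Cells of neither gate held 0, 594, 22 and 87 *Cx3cl1* UMIs, against 13, 72, 23 and 29 in MG. *Cx3cl1* was at 0 (which allows up to 7.08), 29.9, 16.7 and 20.4 CPM in these cells, against 1.10, 3.93, 2.41 and 3.70 CPM in MG. In cells of neither gate that carried bipolar markers it was at 25.1 CPM in 477 cells of *mKate2* AAV replicate 2 and at 20.9 CPM in 89 cells of *Yap5SA* AAV replicate 3. With amacrine markers it was at 67.3 CPM in 130 cells and 46.8 CPM in 30 cells of the same captures. These values exceed the 3.93 CPM of the highest MG capture, and the other 2 captures held at most 6 such cells of either kind. In 45 cells of *mKate2* AAV replicate 2 with T and NK markers *Ccl5* was at 1635 CPM, above the 406 CPM of the myeloid cells there.

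By the correlation of log2(CPM + 1) over 10 summed profiles (myeloid cells and MG of 4 captures, rod-like cells of 2), the genes most like *Ccl3* among 9878 compared were *Ifi207* (Pearson r = 0.999), *Ccl4*, *Gpr132*, *Tlr13* and *Rgs1*. For *Ccl2* they were *Pfkfb3* (r = 0.990), *Birc3*, *Rbms1*, *Clic4* and *Gm17749*, and for *Cx3cl1* they were *Hbegf* (r = 0.951), *Mtx1*, *Gpr146*, *Plp2* and *Nedd9*. The profiles share captures and differ in class and depth, so these values describe likeness only.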

How the data were processed

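The deposited values are raw UMI counts for each gene in each barcode called as a cell, which the authors made with Cell Ranger on GRCm39. Per the labels the version was 8.0.0, whereas the headers name 8.0.0 for 3 and 9.0.1 for 2 of the 5 libraries. Libraries held 12317170 to 50938304 UMIs and no cell below 500. Classes were set per cell by the marker shares given above, and rod-like cells by at least 2% of UMIs in a list of rod photoreceptor genes with neither gate passed. Cells of neither gate were assigned a marker list where at least 2 of its genes were detected.

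Counts were summed per library and class. The test was edgeR 4.0.16 (glmQLFit and glmQLFTest, R 4.3.3) after filterByExpr and TMM scaling, with Benjamini-Hochberg adjustment over all genes tested and a threshold of 0.05. A standard error is the log2 difference divided by the square root of F. The study's methods name no test across genes for these data. The scripts were tested on simulated counts. Shares of cells have exact Clopper-Pearson 95% intervals, and a count of 0 allows 3 counts. Promoters come from GRCm39 and GENCODE canonical transcripts. Other steps used scipy 1.17.1, pandas 2.3.3, numpy 2.4.6 and matplotlib 3.10.9 under Python 3.11.15.

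Genes named are the 10 members, the highest genes by mean of the fixed lists or those whose count was 5 or fewer, and the 5 genes most like *Ccl3*, *Ccl2* and *Cx3cl1* among genes with a mean of at least 10 CPM. *Ccr2*, *Cxcr2*, *Ttr*, *Rgr*, *Tnf*, *Cxcl10*, *Cxcl12*, *Ccl25* and *Apoe* were named after their values were seen. Members and lists were chosen with earlier results of these data known. Alternatives were DESeq2 1.42.0, DESeq2 size factors in edgeR, no filter, at least 2000 UMIs per cell, the quality limits of the study's methods, gates at 2 and 0.5 times the share, cells of both gates in the nearer class, *Yap5SA* AAV replicate 2 in place of 1, no block or a batch block, and leaving out each capture. The marker-list, MHC class II and 3-UMI divisions of cells and the equal weighting of cells were added after seeing the data.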

Additional observations from a re-analysis of the deposited data

Results flagged for a closer look

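Chemokine signal was also present in barcodes that the comparisons left out, above the highest level in rod-like cells (6.36 CPM over the 10 members). Barcodes with the myeloid marker share that failed the limits on depth or mitochondrial share held 2549.7, 5643, 5526 and 2455 CPM of the members in the 4 captures, in the order used above, over 8, 127, 22 and 15 barcodes. Those with the MG marker share that failed the same limits held 14.3, 51.9, 42.8 and 116 CPM in 813, 1283, 174 and 558 barcodes. Barcodes that passed both gates held 6282, 3687 and 9395 CPM in 2, 35 and 2 barcodes of the first 3 captures, and the fourth had none.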

How the results depend on the processing

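The 8 calls between myeloid cells and MG kept their direction and their side of the threshold in every alternative run. No paired analysis was possible by replicate number because, with *Yap5SA* AAV replicate 2 left out, the AAV groups share only the number 1. With the processing batch as a block in its place, 0 members were called in either class (lowest adjusted p = 0.931 in myeloid cells). The capture is the block in the other comparisons. With no replicate block 8 members and 7131 genes were called between the classes, 1 member and 4 genes by IEG share in myeloid cells, and 0 members and 0 genes in MG. UMIs were few for *Cx3cl1* in both classes and, outside *Yap5SA* AAV replicate 1, for *Cxcl1* in myeloid cells. For the AAV comparison in MG, *Ccl8*, *Ccl3*, *Ccl4* and *Ccl5* did not pass the filter. Most of their MG UMIs were in *mKate2* AAV replicate 2. Over counts of calls, 114 of 166 alternatives stayed within 1.5 times the reported count, and over the members' log2 differences 524 of 630 kept sign and side.

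Counts moved as follows. For AAV in myeloid cells DESeq2 called 3 genes, no filter 51 genes and 1 member, and a batch block 2 genes, with 8 to 108 genes and 0 to 1 members when a capture was left out. For the interaction, 1 gene was called with DESeq2, with its size factors and with *Yap5SA* AAV replicate 2, 5 genes and 1 member at 2000 UMIs, 7 genes and 2 members with the study's limits, 16 genes and 4 members with gates at 2 times the share, and 1 member with cells of both gates, with 1 to 205 genes and 0 to 8 members when a capture was left out. By IEG share in myeloid cells, DESeq2 called 766 genes, no filter 1012, 2000 UMIs 127 genes and 3 members, the study's limits 38 genes and 1 member, and cells of both gates 113 genes and 3 members, with 1 to 194 genes and 0 to 5 members by left-out capture. By IEG share in MG, DESeq2 called 256 genes, no filter 561 genes and 4 members, and gates at 2 times the share 28 genes and 1 member, with 20 to 244 genes and 2 to 4 members by left-out capture. Cells with any member made up 81.5% of myeloid cells at 1000 UMIs and 7.93% of MG unthinned, as means over captures. For AAV and for the interaction, a fit without a capture leaves 1 capture in that AAV group, so its counts decide nothing. The causes were not tested, except that fewer captures, cells or genes entered some of the fits by construction.

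Log2 differences that changed sign were as follows. Between the classes *Cxcl1* was -0.088 with DESeq2 and -1.24 to 1.63 by left-out capture, and *Cx3cl1* was -0.57 to 0.19. For AAV in myeloid cells *Ccl8* was -0.12 without a filter, -0.043 with the study's limits and -0.0016 with gates at 0.5 times the share, and *Ccl5* was 0.028 at 2000 UMIs, 0.029 with the study's limits, 0.032 and 0.46 with gates at 2 and 0.5 times the share and 0.37 with a batch block. By left-out capture these 2 were -0.98 to 8.21 and -0.85 to 1.95, *Ccl2* -0.10 to 0.61, *Ccl3* -0.18 to 1.01, *Cxcl1* -3.18 to 3.39 and *Cxcl2* -0.56 to 1.53. For AAV in MG *Ccl2* was 1.04 with the study's limits and 1.07 with a batch block, *Ccl7* 1.39 and 0.076 in the same settings, and *Cxcl2* -0.51 with gates at 2 times the share. By left-out capture *Ccl2* was -2.003 to 5.84, *Ccl7* -4.12 to 4.94, *Cxcl1* -0.70 to 4.84, *Cxcl2* -1.45 to 5.13 and *Cx3cl1* -0.56 to 1.48. For the interaction *Ccl2* was 2.38 with gates at 2 times the share and 0.074 with cells of both gates, *Cxcl2* 1.56 and 0.20 in the same settings, *Ccl7* -0.36 with the study's limits, and *Cxcl1* 0.076 with DESeq2 size factors and 0.074 with *Yap5SA* AAV replicate 2. By left-out capture *Ccl2* was -5.67 to 2.57, *Ccl7* -3.00 to 2.84, *Ccl12* -2.01 to 2.25, *Ccl3* -0.55 to 5.59, *Ccl4* -0.52 to 3.22, *Cxcl1* -4.91 to 3.03 and *Cxcl2* -5.22 to 2.50. By IEG share in myeloid cells *Ccl12* was -0.017 at 2000 UMIs, -0.070 with the study's limits, -0.11 with gates at 0.5 times the share and -0.16 to 0.49 by left-out capture. By IEG share in MG *Cx3cl1* was 0.12 at 2000 UMIs, 0.13 with the study's limits, 0.23 with gates at 2 times the share and -0.21 to 0.30 by left-out capture.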
